A study of Mus musculus with 12 samples.

Results

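The Hox genes are the homeobox transcription factor genes that lie in the Hoxa, Hoxb, Hoxc and Hoxd clusters. All probes whose gene symbol on the array platform was Hoxa, Hoxb, Hoxc or Hoxd followed by a number were taken, which gave 51 probes for 38 genes out of 46133 probes and 17658 genes named by a single symbol. The Hoxa and Hoxb clusters contributed 10 genes each and the Hoxc and Hoxd clusters 9 each. Where a gene had several probes, as 10 of the 38 had, it was represented by the probe with the highest mean signal over the arrays.

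RNA came from the heart and the skeletal muscle of male C57BL/6 mice aged 18 weeks. A control group received a diet with 0.02% iron, a high-iron group a diet with 2% carbonyl iron, and no genetic modification was involved. Each of the 4 groups (heart and skeletal muscle, control and high-iron) comprised samples from 3 mice. Each sample had its own Illumina Sentrix Mouse-6 array, for 12 arrays in all. As the study's methods describe both tissues as taken from 3 mice of each diet, the tissues did not come from separate sets of mice. The methods of the study name the skeletal muscle as the extensor digitorum longus, a muscle of the lower hindlimb.

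Hox proteins bind DNA through their homeodomain, usually together with Pbx and Meis proteins, and tell cells of the embryo where along the head to tail axis they lie. Within a cluster the genes are numbered by their order along the chromosome, low-numbered genes being switched on early and towards the head and high-numbered genes late and towards the tail. Genes of the same number in different clusters are paralogs, and the high-numbered Hoxa and Hoxd genes also pattern the limb from shoulder to digit. Limb muscle, its connective tissue and its tendons arise at trunk levels, whereas the heart forms from mesoderm near the head, and adult cells may keep the Hox pattern of their origin.

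Sequence from RefSeq was matched for 22 of the 38 genes, and the promoters of those that stood apart in the results below are shown as the 300 bases from 250 before to 50 after the annotated start. Hoxa5, Hoxa7, Hoxa11 and Hoxd8 had higher signals in skeletal muscle than in heart, and Hoxb4 had the brightest Hox probe in heart. Each sequence is written 5′ to 3′ on the strand of the gene. Capitals mark matches on either strand to TATAAA (the TATA box), CCAAT (the CCAAT box), CAGCTG (an E-box of the kind MyoD binds) and TTTATG (a site of the kind that caudal-type homeobox proteins bind). None of these motifs contains another.
Hoxa5 promoter, GRCm38.p6 chr6:52204538-52204837, minus strand: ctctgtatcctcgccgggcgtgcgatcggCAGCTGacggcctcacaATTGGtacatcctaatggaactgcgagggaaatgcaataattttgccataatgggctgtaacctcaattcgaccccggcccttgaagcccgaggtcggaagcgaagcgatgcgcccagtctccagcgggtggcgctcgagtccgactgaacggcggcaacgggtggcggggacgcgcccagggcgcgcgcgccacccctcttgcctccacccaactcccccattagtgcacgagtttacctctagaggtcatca
Hoxa7 promoter, GRCm38.p6 chr6:52218524-52218823, minus strand: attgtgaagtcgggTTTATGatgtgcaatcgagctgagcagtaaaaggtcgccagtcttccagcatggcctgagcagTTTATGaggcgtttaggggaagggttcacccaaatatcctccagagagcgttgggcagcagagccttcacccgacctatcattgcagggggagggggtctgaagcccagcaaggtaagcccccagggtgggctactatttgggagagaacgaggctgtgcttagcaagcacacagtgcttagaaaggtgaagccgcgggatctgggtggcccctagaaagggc
Hoxa11 promoter, GRCm38.p6 chr6:52245761-52246060, minus strand: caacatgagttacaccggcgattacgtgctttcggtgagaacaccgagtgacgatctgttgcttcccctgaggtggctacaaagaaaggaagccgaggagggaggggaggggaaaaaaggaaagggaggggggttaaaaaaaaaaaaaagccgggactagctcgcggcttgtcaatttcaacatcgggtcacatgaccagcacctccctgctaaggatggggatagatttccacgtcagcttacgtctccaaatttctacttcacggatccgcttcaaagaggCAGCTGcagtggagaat
Hoxd8 promoter, GRCm38.p6 chr2:74704365-74704664, plus strand: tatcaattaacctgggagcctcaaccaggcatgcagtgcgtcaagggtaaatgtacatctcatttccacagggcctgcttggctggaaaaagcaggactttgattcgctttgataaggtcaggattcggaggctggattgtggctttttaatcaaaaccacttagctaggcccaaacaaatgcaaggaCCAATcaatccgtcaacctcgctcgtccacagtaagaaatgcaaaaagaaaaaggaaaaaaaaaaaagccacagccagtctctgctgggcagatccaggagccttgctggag
Hoxb4 promoter, GRCm38.p6 chr11:96318017-96318316, plus strand: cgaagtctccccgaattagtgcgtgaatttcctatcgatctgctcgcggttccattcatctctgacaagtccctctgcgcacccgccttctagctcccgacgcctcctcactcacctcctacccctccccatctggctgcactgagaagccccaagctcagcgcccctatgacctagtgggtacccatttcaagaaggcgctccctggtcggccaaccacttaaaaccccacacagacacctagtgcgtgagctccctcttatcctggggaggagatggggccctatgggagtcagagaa

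No motif searched was found in all 5 sequences. Hoxa7 held 2 matches to TTTATG, Hoxa5 and Hoxa11 each held 1 CAGCTG, and Hoxa5 and Hoxd8 each held 1 CCAAT box, that of Hoxa5 on the opposite strand, whereas Hoxb4 held none of the motifs searched. Over the 22 Hox promoters, 14 held a CCAAT box, 5 held TTTATG, 4 held CAGCTG and 3 held TATAAA. Among all 27025 promoters of the same length, the shares were 37.9% for CCAAT, 12.1% for TTTATG, 16.1% for CAGCTG and 14.2% for TATAAA. The Hox promoters contained a median of 13.5 CG dinucleotides (from 4 in Hoxa9, Hoxd4 and Hoxd11 to 45 in Hoxa13), compared with a median of 7 over all promoters. A match describes the letters of the window and not a bound site. Hoxc6, Hoxc9, Hoxc10 and Hoxb5, the other genes with higher signals in skeletal muscle, had no entry.

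Signals are probe intensities after quantile normalization over the 12 arrays, and differences are given on the log2 scale. Since most Hox probes were dim, 1180 probes for olfactory and vomeronasal receptor genes, most of which act in sensory neurons, served as a reference for dim signal. Their median signal was 241 in both tissues, and their 95th percentile was 301 in skeletal muscle and 304 in heart. A gene with a mean log2 value above that percentile in a tissue is called above the receptor range there, as 23.8% of all probes were in skeletal muscle and 23.1% in heart. A probe within the range gives no evidence of a level, and its fold change may understate a change in RNA. Tests were two-sided and made with limma, and p was adjusted by the Benjamini-Hochberg method over all 46133 probes, with a threshold of 0.05. Signals of different probes are not compared as amounts of RNA.

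The tissue markers matched the labels, with 13 of 14 skeletal muscle fibre markers higher in skeletal muscle and 10 of 12 heart markers lower. Array medians before normalization followed the replicate number in all 4 groups, with 281.4 to 337.2 for number 1, 251.4 to 282.5 for number 2 and 182.9 to 192.7 for number 3. With the number as a replicate block over both tissues and diets, 9 genes passed in the tissue comparison, the 8 described below and Hoxa4. A control and a high-iron heart array (replicate 2 and replicate 1 of their groups) stood apart, with median correlations of 0.936 and 0.931 with the other heart arrays, compared with 0.983 to 0.986 for the other 10 arrays with arrays of their own tissue. Leaving out both heart arrays left the tissue count at 8 genes and the diet count in heart at 0.

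Of the 38 Hox genes, 8 had higher signals in skeletal muscle than in heart and 0 had lower signals, and the remaining 30 did not pass the threshold. Over all probes, 5.5% were higher and 7.3% lower in skeletal muscle, and when each named gene was represented by its brightest probe, 8.86% were higher and 13.6% lower. The 8 genes were Hoxc9, Hoxc6, Hoxa7, Hoxc10, Hoxa11, Hoxd8, Hoxa5 and Hoxb5, in order of p, and so came from all 4 clusters. For 7 of them, all but Hoxa5, every skeletal muscle array was above every heart array, which held for 4.2% of all probes. The median difference over the 38 genes was 0.03 (from -0.06 to 1.68), against 0.0004 over all probes. With a whole tissue as the sample, more cells of a type that expresses a gene and more RNA per cell cannot be told apart.

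**Figure D1:**
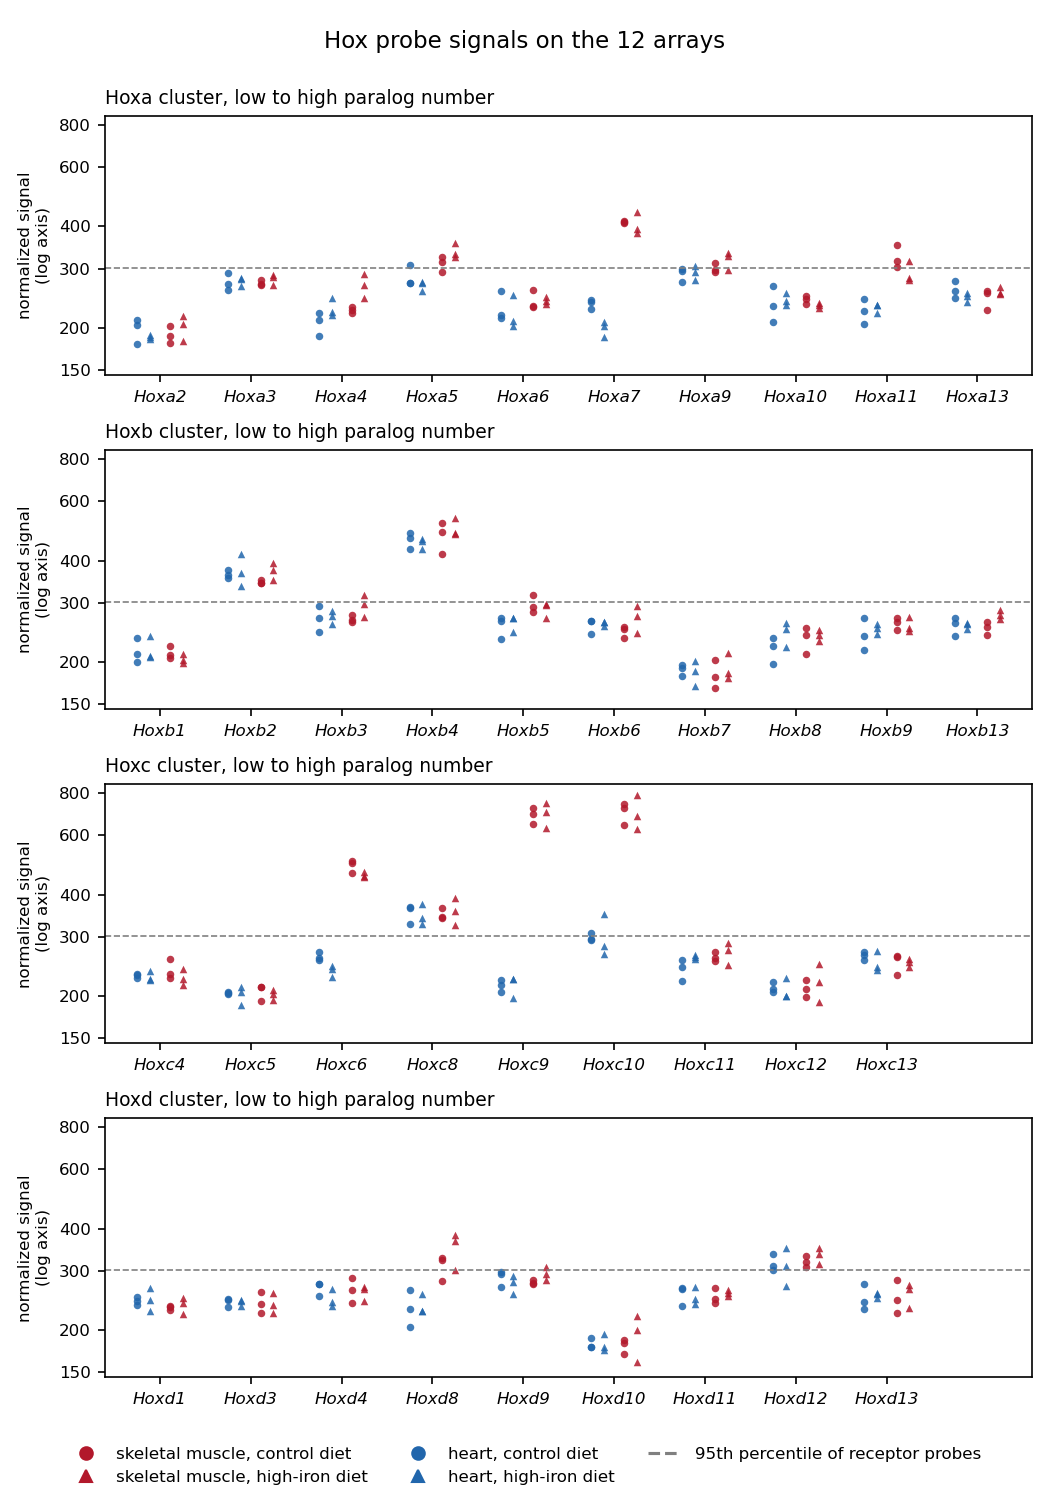
Normalized probe signal (log axis) of the 38 Hox genes on the 12 arrays, in 4 panels by cluster and ordered by gene number. Red marks are skeletal muscle, blue marks heart, circles control diet and triangles high-iron diet, and the dashed line is the mean of the 2 tissues' 95th percentiles of the receptor probes; Hoxc9, Hoxc10, Hoxc6 and Hoxa7 in skeletal muscle lie clearly above the line and above all heart arrays.

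By the brightest probes, the Hoxc cluster held 3 of the 4 largest differences, and by the mean of all probes of a gene 2 of the 4, Hoxc6 then coming after Hoxd8. Hoxc9, a gene of the thoracic region that shapes motor neuron columns, had signals of 198, 220.0 and 225 in heart (lowest, median and highest of 6 arrays) and of 629, 699 and 749.6 in skeletal muscle. The tissues lay far apart on every array, 3.20-fold on the linear scale, with a log2 difference of 1.68 (standard error 0.0568, adjusted p = 5.9e-13). Hoxc10, which in the mouse embryo marks the hindlimb and lumbar levels, had signals of 267, 295 and 350.5 in heart and of 626, 704 and 792 in skeletal muscle. Its difference was 1.23 (standard error 0.0727, adjusted p = 1.1e-09), or 2.34-fold, and again no array of one tissue reached the other. Hoxc6, a gene of cervical and upper thoracic levels, had signals of 227, 250.4 and 271 in heart and of 452, 466 and 502 in skeletal muscle, a difference of 0.92 (standard error 0.0456, adjusted p = 1.1e-10), or 1.89-fold.

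The other 6 Hoxc genes did not pass the threshold by their brightest probes. Hoxc9 and Hoxc10 were the only neighbours in a cluster whose brightest probes both passed. On their low-numbered side, the probe chosen for Hoxc8, a gene of trunk and brachial levels, had signals of 327, 354 and 376 in heart and of 325, 349.8 and 391 in skeletal muscle, which overlapped throughout. Beyond Hoxc10, Hoxc11, Hoxc12 and Hoxc13 had differences of 0.08, 0.03 and -0.04, and each was within the receptor range in both tissues. By the mean of all probes of a gene, Hoxc8 also passed in limma (0.21, adjusted p = 0.00098). So did Hoxa4 (0.18, adjusted p = 0.0458), which lies beside Hoxa5.

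In the Hoxa cluster 3 of 10 genes were higher in skeletal muscle by their brightest probes, none of them next to another. Hoxa7, which takes part in the patterning of thoracic vertebrae, had signals of 188, 218 and 241 in heart and of 383, 411 and 442 in skeletal muscle. Its difference was 0.91 (standard error 0.0502, adjusted p = 4.3e-10), or 1.88-fold, with a wide gap between the tissues. Hoxa11, which patterns the middle segment of the limb, had signals of 206, 229 and 243 in heart and of 278, 309 and 353 in skeletal muscle. The arrays of the tissues did not overlap, with a difference of 0.44 (standard error 0.0578, adjusted p = 2.4e-05).

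Hoxa5, needed for lung and neck vertebra development, had signals of 257, 272 and 307 in heart and of 294, 325 and 357 in skeletal muscle. These overlapped, and the difference was 0.23 (standard error 0.0514, adjusted p = 0.0037). Among control-diet arrays alone it was 0.14 (adjusted p = 0.49). Hoxa4, a gene of neck vertebra identity, lay just outside the threshold and was within the receptor range in both tissues. Its signals were 189, 219.9 and 245 in heart and 221, 238 and 289 in skeletal muscle, with a difference of 0.18 (adjusted p = 0.055), and with same-numbered heart and skeletal muscle arrays of a diet blocked as 1 mouse, which the labels do not state outright, it passed (adjusted p = 0.0415 with a fixed and 0.0423 with a random block).

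In the Hoxd cluster Hoxd8 alone of 9 genes passed the threshold. Hoxd8, whose part in the axial skeleton overlaps that of Hoxb8 and Hoxc8, had signals of 204, 230.4 and 263 in heart and of 279.7, 326 and 383 in skeletal muscle. No array of one tissue reached the other, and the difference was 0.49 (standard error 0.0743, adjusted p = 0.00012). Hoxd9 to Hoxd13, which pattern the limb from the upper segment to the digits, had differences of 0.01 to 0.06, all with 95% intervals that included 0. Of these only Hoxd12 was above the receptor range, and Hoxd9, Hoxd10, Hoxd11 and Hoxd13 were within it in both tissues.

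In the Hoxb cluster only Hoxb5, which helps to place the shoulder girdle, passed, and it lay next to the threshold. Its signals were 234, 267 and 270.4 in heart and 271, 293 and 316 in skeletal muscle, so that the highest heart array and the lowest skeletal muscle array nearly met. The difference was 0.17 (standard error 0.0546, adjusted p = 0.048), and Hoxb5 was within the receptor range in both tissues. It passed in 13 of 24 alternative settings that tested it, whereas Hoxc9, Hoxc10, Hoxc6, Hoxa7, Hoxa11 and Hoxd8 passed in all 25. The settings share arrays and are not independent. The setting that tested only probes above the receptor range in either tissue admitted these genes through skeletal muscle alone, and so lends no support. No setting tested the second Hoxc6 probe on its own.

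**Figure D2:**
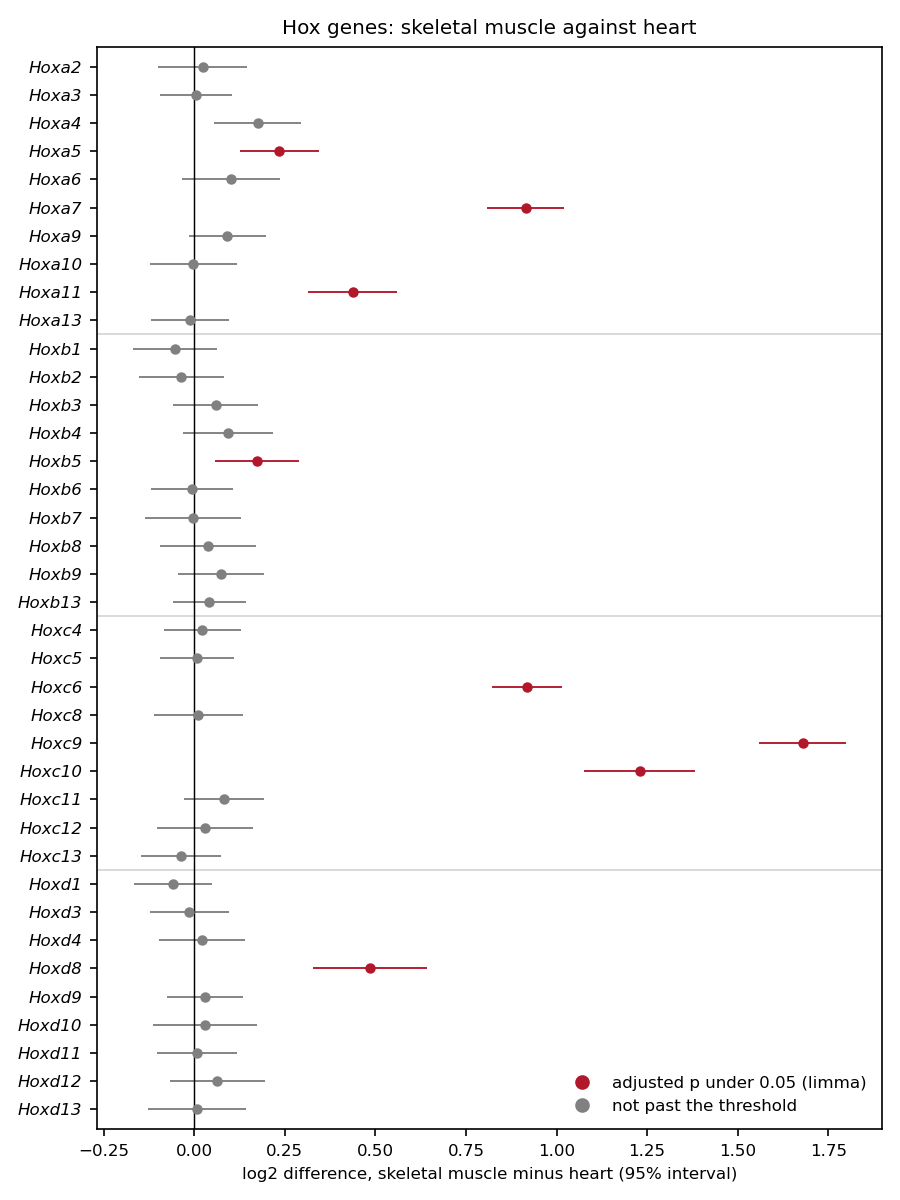
Log2 difference of normalized signal, skeletal muscle minus heart, for the 38 Hox genes (points, with 95% intervals from limma), ordered by cluster and number. The 8 genes in red had an adjusted p under 0.05 and all lie to the right of 0, from 0.17 for Hoxb5 to 1.68 for Hoxc9, and most of the 30 genes in grey lie near 0.

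By number, 0 of 11 genes numbered 1 to 4, 5 of 11 numbered 5 to 8 and 3 of 16 numbered 9 to 13 were higher in skeletal muscle. Among all named genes 8.86% were higher, so the 0 of 11 is not far from that share, and Hoxa4 passed with a replicate block. Across the 38 genes, which share all arrays and are not independent, number and difference had a Spearman correlation of 0.176.

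By the brightest probe of each gene, 12 of 38 Hox genes were above the receptor range in skeletal muscle and 4 in heart. Over all probes the shares were 23.8% and 23.1%, and they were not computed for the brightest probe of each named gene. Hoxb2, Hoxb4, Hoxc8 and Hoxd12 were above it in both tissues. Hoxa5, Hoxa7, Hoxa9, Hoxa11, Hoxc6, Hoxc9, Hoxc10 and Hoxd8 were above it in skeletal muscle only, 0 were above it in heart only, and 26 were above it in neither tissue. By these probes, all 8 genes that were higher in skeletal muscle were within the range in heart. The second Hoxc6 probe was just above the range in heart (mean signal 304) and within it in skeletal muscle (297). Choosing a probe by its mean over both tissues can thus favour one that is high in skeletal muscle alone, which bears on these counts. At the 99th percentile of the receptor probes, 10 genes were above in skeletal muscle and 3 in heart, and the share of all probes above it was not computed.

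The 4 genes above the receptor range in heart did not differ past the threshold between the tissues. Hoxb4, known for its part in the growth of blood stem cells, was the brightest in heart, with signals of 432, 460.1 and 483 there and of 418, 485 and 536 in skeletal muscle (difference 0.09, 95% interval -0.03 to 0.22). Hoxb2, which acts in the hindbrain and its facial motor neurons, had signals of 336.5, 364 and 418 in heart and of 343, 350.2 and 394 in skeletal muscle (difference -0.04, 95% interval -0.15 to 0.08). Hoxd12, a gene of the digits, had signals of 270.2, 311 and 352 in heart and of 309, 326 and 350.4 in skeletal muscle, so that some heart arrays were within the receptor range (difference 0.06, 95% interval -0.07 to 0.19). Hoxc8 differed by 0.01 (95% interval -0.11 to 0.13). With 6 arrays per tissue, differences of any size within these intervals remain compatible with the data, as does 0, so equal levels are not shown.

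The probes of a gene did not always give the same call. Of the 10 genes with several probes, 2 had probes that differed in call, and of the 13 further probes 2 were higher in skeletal muscle. The second probe for Hoxc8, dimmer in both tissues, had signals of 202, 223 and 238 in heart and of 275, 295 and 317 in skeletal muscle, a difference of 0.40 (adjusted p = 2.9e-05). The 2 probes thus disagreed on whether Hoxc8 differed between the tissues. For Hoxc6 the disagreement ran the other way, its second probe having signals of 277, 306 and 321 in heart and of 281, 299 and 312 in skeletal muscle (difference -0.04, adjusted p = 0.82). The mean of both Hoxc6 probes differed by 0.44. Both probes for Hoxa7 were higher in skeletal muscle, the second by 0.55 (adjusted p = 1.2e-07). Which transcripts each probe detects was not tested.

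**Figure D3:**
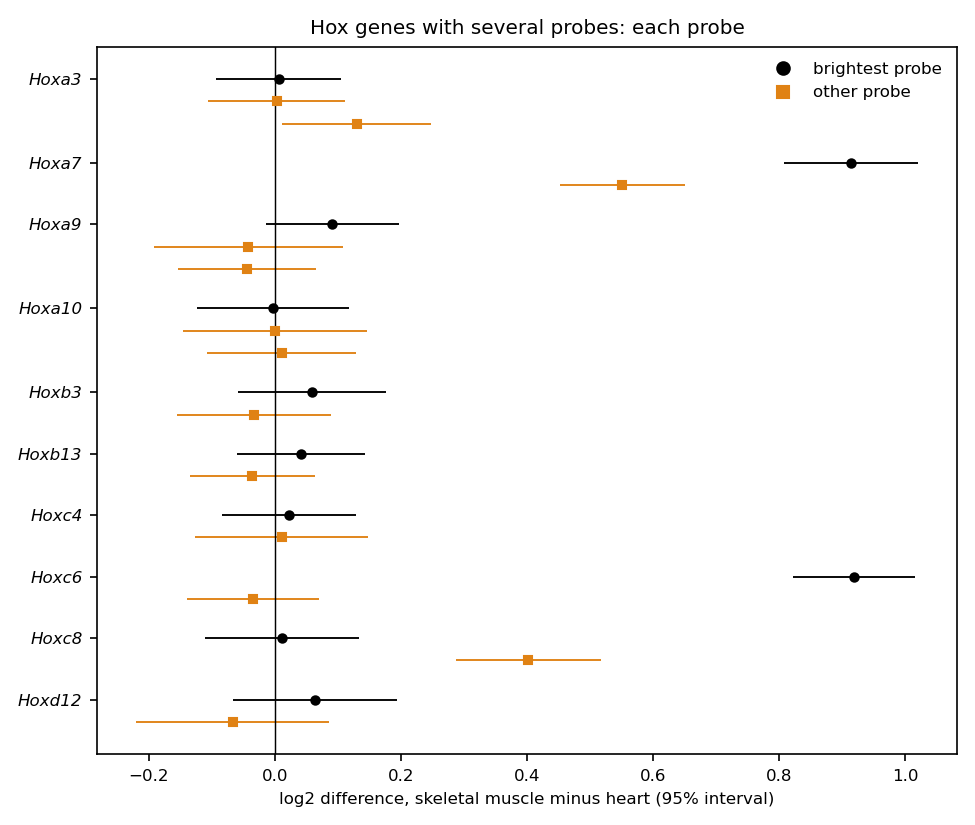
Log2 difference, skeletal muscle minus heart, with its 95% interval from limma, for each probe of the 10 Hox genes with several probes. Black circles are the brightest probe of a gene and orange squares its other probes; both Hoxa7 probes lie to the right of 0, whereas Hoxc6 (0.92 and -0.04) and Hoxc8 (0.01 and 0.40) have 1 probe on the right and 1 near 0.

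Since much of a dim probe's signal is background, the folds depended on how background was treated. When the receptor probes served as negative controls for a background correction, with an offset of 16 added, the ratio of mean signals was 13.4 for Hoxc9, 6.42 for Hoxc10, 5.43 for Hoxc6 and 4.99 for Hoxa7. It was 2.52 for Hoxd8, 2.16 for Hoxa11, 1.65 for Hoxa5 and 1.39 for Hoxb5, and the same 8 genes passed the threshold. In heart the corrected means of the 8 genes (34.1 to 72.9) were all under the corrected 95th percentile of the receptor probes (75.0), so that these ratios depend on the correction and its offset and are not bounds on a change in RNA. Hoxb4 had a corrected ratio of 1.14 and again did not pass.

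Several genes for partners of Hox proteins were lower in skeletal muscle. Of 8 measured genes for Pbx, Meis and Pknox cofactors, which bind DNA beside Hox proteins, 0 were higher in skeletal muscle and 3 were lower (median over the list -0.05), where 13.6% of all named genes were lower. Meis1 had signals of 598, 688 and 847 in heart and of 287, 332 and 350.1 in skeletal muscle, a difference of -1.10 (adjusted p = 5.6e-09). Meis2 had signals of 543, 589 and 657 in heart and of 267, 288 and 316 in skeletal muscle, a difference of -1.03 (adjusted p = 1.3e-09). Pbx3 differed by -0.32 (adjusted p = 0.00017), while Pknox1 differed by 0.13 (adjusted p = 0.21) and was above the receptor range in both tissues. The arrays of the tissues did not overlap for Meis1, Meis2 or Pbx3, and Meis2 and Pbx3 were within the receptor range in skeletal muscle.

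**Figure D4:**
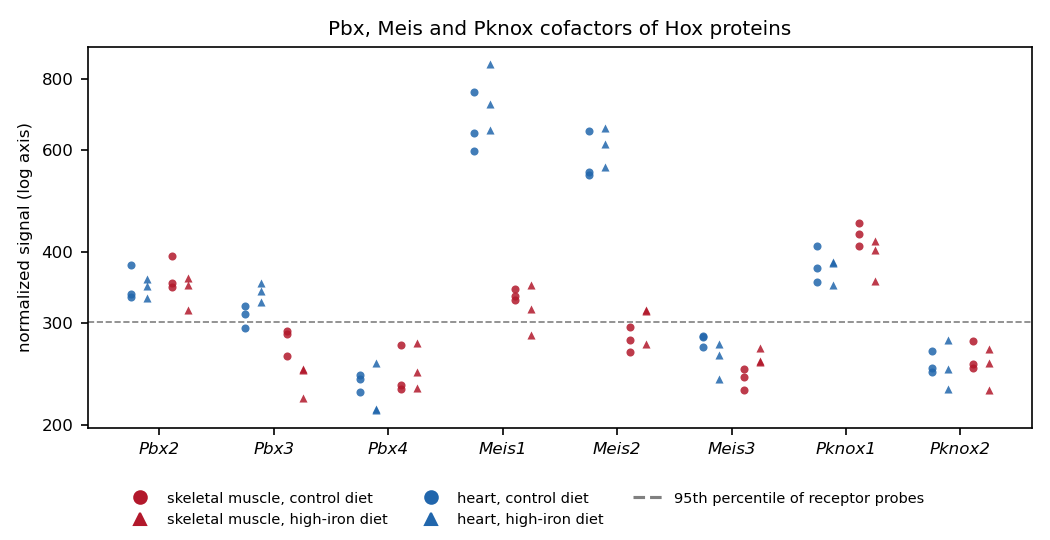
Normalized signal (log axis) of 8 genes for Pbx, Meis and Pknox cofactors on the 12 arrays. Red marks are skeletal muscle, blue marks heart, circles control diet and triangles high-iron diet, and the dashed line is the mean of the 2 tissues' 95th percentiles of the receptor probes; Meis1, Meis2 and Pbx3 are higher on every heart array than on any skeletal muscle array.

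Of 26 measured limb patterning factors, 3 were higher and 2 lower in skeletal muscle (median 0.01), against 8.86% and 13.6% of all named genes. Lbx1, needed for muscle precursors to migrate into the limb, differed by 0.54 (adjusted p = 1.4e-06), Six4, a regulator of muscle genes, by 0.29 (adjusted p = 0.0005) and Tbx15, a gene of fast muscle fibres, by 0.27 (adjusted p = 0.011). Tbx5, a gene of the heart and the forelimb, had a difference of -0.80 (adjusted p = 2.9e-08), with signals of 356, 430.0 and 480.2 in heart and of 224, 238 and 272 in skeletal muscle. Meox1, a gene of the somites, differed by -0.40 (adjusted p = 0.00053). The hindlimb factors Tbx4 and Pitx1 had differences of -0.03 and -0.02, with adjusted p of 0.87 and 0.95.

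The genes that flank the clusters were taken as the 3 nearest with a probe on each side, 24 in all. Of these, 1 was higher and 6 were lower in skeletal muscle (median -0.07), where 8.86% of all named genes were higher and 13.6% lower. The higher gene was Lnpk, 2 places beyond the high-numbered end of the Hoxd cluster, which encodes a protein of the endoplasmic reticulum and is known to share limb enhancers with Hoxd genes. It had signals of 262, 301 and 344 in heart and of 509, 557 and 615 in skeletal muscle, a difference of 0.86 (adjusted p = 1.3e-08). Evx2, which lies between Lnpk and Hoxd13, differed by 0.06 (adjusted p = 0.76), and Mtx2, beside the low-numbered end, by -0.07 (adjusted p = 0.71). The probes for Evx2 and Mtx2 were within the receptor range in both tissues.

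Some markers of other cell types also differed between the tissues, where 8.86% of all named genes were higher in skeletal muscle and 13.6% lower. Of 8 tendon markers 5 were higher in skeletal muscle, with a summed signal of 3301 to 4444 in skeletal muscle against 2048 to 2397 in heart, and Tnmd, the defining tendon cell gene tenomodulin, differed by 1.45 on the log2 scale (adjusted p = 4.8e-10). Of 11 fibroblast markers 3 were higher (Col1a1, Col1a2 and Col3a1) and 2 lower (Dpt and Fbln1), and their sums overlapped, with 18158 to 20984 in skeletal muscle and 15172 to 23596 in heart. Of 8 satellite cell markers 1 was higher (Cdh15) and 1 lower (Itga7), with sums of 2149.8 to 2279 and 1995 to 2074. Of these 8, 2 were above the receptor range in skeletal muscle and 1 in heart, so dim signal makes up much of these sums. Pax7, Pax3 and Myf5 were within the receptor range in both tissues. Of 5 Schwann cell markers Mbp alone was higher, with summed signals of 2546 to 2946 in skeletal muscle and 2146 to 2739.6 in heart.

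Endothelial and macrophage markers were lower in skeletal muscle, where 13.6% of all named genes were lower. Of 9 endothelial markers 8 were lower in skeletal muscle, with sums of 7136 to 7721 against 10599 to 11787, and all 5 macrophage markers were lower, with sums of 2001 to 2825 against 3584 to 4368. Of 7 smooth muscle and pericyte markers 2 were lower (sums of 6487 to 7439 and 6317 to 9946), and of 6 adipocyte markers 0 passed (sums of 1505 to 1926 and 1432 to 4475). The part of these cell types in the Hox differences was not tested.

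The series was designed to compare the diets within each tissue. In skeletal muscle 0 of the 38 Hox genes passed the threshold between the diets, where 0.0997% of all probes, or 46, did, and in heart 0 passed, as 0% of all probes did. At an unadjusted p under 0.05 there was 1 Hox gene in each tissue, while over the whole array 2364 probes reached that level between the diets in muscle and 1180 did so for cardiac samples. Standard errors of the diet differences were 0.07 to 0.0920 in skeletal muscle and 0.0687 to 0.104 in heart on the log2 scale, which sets the size of change that 3 mice per diet could show. The median difference over the 38 genes was 0.04 in skeletal muscle and 0.0007 in heart.

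Hoxa4, which was within the receptor range in both tissues, had the smallest p in skeletal muscle. Its signals were 221, 226 and 231 on the control diet and 245, 268 and 289 on the high-iron diet, so that the diets did not overlap, and the difference was 0.24 (standard error 0.0755, adjusted p = 0.67). Among the genes with lower signals on the high-iron diet, Hoxa11 had the smallest p. It had signals of 303, 315 and 353 on the control diet and of 278, 282 and 316 on the high-iron diet, which overlapped (difference -0.15, adjusted p = 0.995). Besides Hoxa4, the diets did not overlap for Hoxa5, Hoxb13 and Hoxd9, which makes 4 of 38 genes where 10.2% of all probes did not overlap.

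In heart Hoxa7 had the smallest p. Its signals were 227, 239 and 241 on the control diet and 188, 202 and 209 on the high-iron diet, with no overlap and a difference of -0.24 (standard error 0.0735, adjusted p = 1.0). All of these signals were within the receptor range, and without the 2 heart arrays that stood apart the difference was -0.19. In skeletal muscle Hoxa7 differed by -0.02 between the diets. Among the genes with higher signals on the high-iron diet Hoxb8, a gene also active in blood cell precursors, had the smallest p, with signals of 198, 223 and 236 on the control diet and of 221, 251 and 261 on the high-iron diet, which overlapped (difference 0.16, adjusted p = 1.0). The diets did not overlap for Hoxa7, Hoxc6 and Hoxc11, or 3 of 38 genes, where 7.79% of all probes did not overlap.

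The diet effect of no Hox gene was found to differ between the tissues, with 0 of 38 past the threshold in the test of that difference, as for 0% of all probes. At an unadjusted p under 0.05 there was 1, Hoxa7 (0.22, 95% interval 0.003 to 0.43), among 1313 of all 46133 probes. For the 3 genes with the largest tissue differences no diet difference passed the threshold in either tissue. The diet differences were 0.01 in skeletal muscle and 0.004 in heart for Hoxc9, -0.01 and -0.01 for Hoxc10, and -0.09 and -0.14 for Hoxc6. In heart the Hoxc6 arrays of the diets did not overlap. The tissue difference of Hoxc9 was 1.68 among control-diet arrays alone and 1.68 among high-iron arrays alone, and that of Hoxc10 was 1.23 in each.

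**Figure D5:**
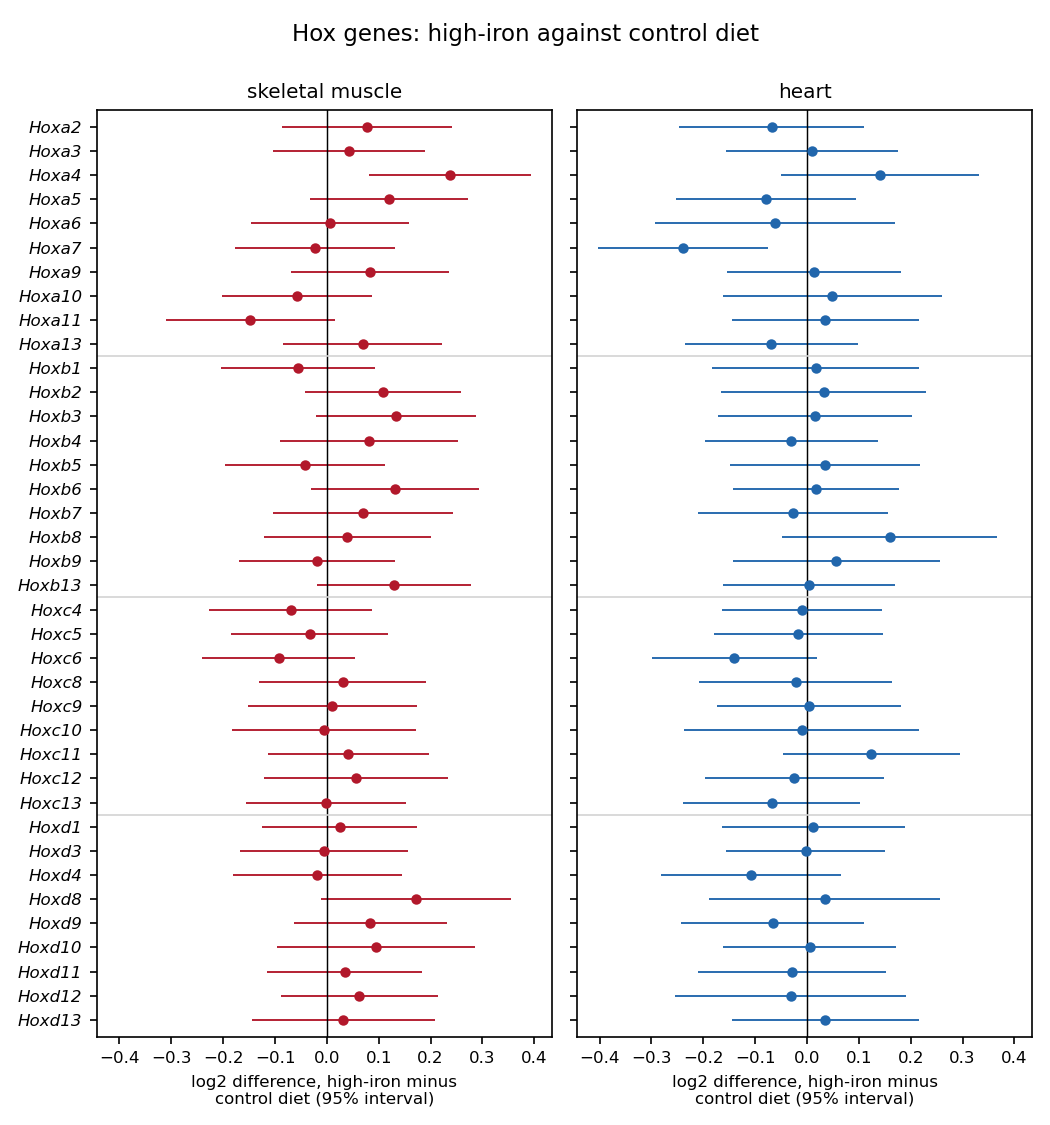
Log2 difference of normalized signal, high-iron minus control diet, for the 38 Hox genes in skeletal muscle (left, red) and heart (right, blue), with 95% intervals from limma before adjustment for multiple tests. The interval leaves out 0 for Hoxa4 in skeletal muscle (0.24) and for Hoxa7 in heart (-0.24), and neither passed after adjustment.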

How the data were processed

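Total RNA was amplified, biotin labelled and hybridized to Illumina Sentrix Mouse-6 arrays. The authors deposited a signal intensity for each of 46133 probes per array as read with BeadStudio, before normalization, and a table of intensity values that they had quantile normalized, which was used here as an alternative only. Handling of background is not given in the sources used here. The study's methods mention failed probes on a control and a high-iron heart array without naming them.

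Signals were quantile normalized over the 12 arrays and taken to log2 without an offset. Tests used limma 3.58.1 in R 4.3.3 (lmFit and eBayes, two-sided, Benjamini-Hochberg over all probes, threshold 0.05). The tissues were compared over all arrays, as the mean of both skeletal muscle groups minus that of both heart groups, and the diets within each tissue. The scripts were tested on simulated data. Samples of both tissues that carry the same diet label and number were taken as 1 mouse, which the labels do not state outright (correlation of their deviations 0.0262 to 0.0998), and the mouse as a block was an alternative.

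Symbols came from the platform annotation (29542 probes had 1 symbol, 11 several and 16580 none). Hox genes named with per-array values are those past the threshold between tissues, those above the receptor range in heart, the smallest p in each direction per diet comparison, and the brightest per cluster. Hoxa4 is given in the tissue comparison, with Hoxc11 to Hoxc13, Hoxd9 to Hoxd13, Pknox1, Tbx4, Pitx1, Evx2 and Mtx2, outside this rule and after their values were seen. The Hox genes, the gene lists and the alternatives were chosen with earlier results of these data known. Flanking genes follow the order in the RefSeq gene table, and promoters are from RefSeq (GRCm38.p6). The array files name no genome build, so no coordinates of probes are given. The number of arrays limits the precision.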

Additional observations from a re-analysis of the deposited data

How the results depend on the processing

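The count of Hox genes higher in skeletal muscle was 8 and ranged from 6 (control-diet arrays only) to 10 (mean of all probes of a gene) over the alternatives, and from 7 to 9 when each array was left out in turn, with 0 lower in each. With the mouse as a fixed or a random replicate block it was 9, Hoxa4 being added, and likewise with the replicate number as a block over both tissues, an alternative chosen after seeing the data. The diet counts were 0 in every alternative, including a replicate block by number. Across the diets, deviations of same-numbered heart arrays correlated at -0.46, -0.544 and 0.488, so the numbers were not taken as pairs, although array medians before normalization followed them. The number of genes above the receptor range in heart was 4 and became 2, Hoxb2 and Hoxb4, with the mean of all probes of a gene, under which Hoxc8 passed in the tissue comparison (0.21, adjusted p = 0.00098). Hoxb5 lost its call in 11 of 24 alternatives, namely arrays scaled to one median (adjusted p = 0.058), control-diet arrays only (0.19), high-iron arrays only (0.49), and without any 1 of 8 arrays (0.0569 to 0.134), these being control replicates 1 and 3 and high-iron replicates 2 and 3 of heart and replicates 2 and 3 of either skeletal muscle group.

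Small differences that were not past the threshold changed sign. Hoxc8 (0.01) became -0.0147 with control-diet arrays only and ranged from -0.0222 to 0.0449 when each array was left out in turn. Hoxb2 (-0.04) became 0.00157 with high-iron arrays only and 0.00289 without the 2 heart arrays that stood apart, and ranged from -0.0727 to 0.00529 when each array was left out. Hoxd12 (0.06) became -0.000724 without those 2 heart arrays and -0.00168 with the mean of all probes. The cause was not tested.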

Other observations

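Some regulators of Hox chromatin differed between the tissues, as did named genes in general (8.86% higher and 13.6% lower in skeletal muscle). Of 22 measured genes of the Polycomb list, 3 were higher in skeletal muscle and 2 lower (median 0.02). Most products of the listed genes keep Hox genes silent, but the list also named the demethylase genes Kdm6a and Kdm6b, whose products counter that silencing. Phc1 differed by 0.69 (signals of 530, 558 and 645 in heart, lowest, median and highest, and of 871, 916 and 980.3 in skeletal muscle), Eed by 0.24 and Cbx7 by 0.21, whereas Pcgf5 differed by -0.65 and Phc2 by -0.50. Of 9 measured Trithorax genes, whose products keep Hox genes active, 0 were higher and 2 lower, Psip1 by -0.18 and Kmt2b by -0.16 (median -0.05). Of 9 measured genes on a list of caudal, other ParaHox and related homeobox factors, 0 passed (median -0.04). That list also named Mnx1 and, beside the Hoxa and Hoxd clusters, Evx1 and Evx2. Of the genes of these 3 lists, 0 passed between the diets in either tissue.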
